A study of Bos taurus with 9 samples.

Results

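The integrated stress response genes examined here are 10 transcripts of the ATF4 program, namely ATF4, DDIT3, TRIB3, PPP1R15A, ASNS, PSAT1, PHGDH, CHAC1, SESN2 and DDIT4. They were chosen by symbol from a table of 30641 genes, and all 10 were among the 14874 genes with enough counts to be tested. RNA was sequenced from cells labelled as endometrial epithelial cells of cattle, in 3 groups of 3 libraries. The DPPA3 mRNA group was transfected 24 hours after plating with 500 ng of in vitro transcribed DPPA3 mRNA, carried by jetMESSENGER. The reagent alone group got jetMESSENGER only, and the untreated control group got no reagent and no RNA. All groups were grown in the same commercial growth medium, and the labels used here do not state the time from transfection to harvest. Replicates are not said to be separate cultures or animals. Their spread may thus be technical, and p-values measure that spread alone.

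In the integrated stress response, kinases that sense different stresses phosphorylate the translation factor eIF2. General translation then falls, while the transcription factor ATF4 is translated preferentially and switches on genes for amino acid supply, redox balance, cell death and recovery. PKR, encoded by EIF2AK2, is the kinase that responds to double-stranded RNA, PERK (EIF2AK3) to misfolded protein in the endoplasmic reticulum, GCN2 (EIF2AK4) to lack of amino acids and HRI (EIF2AK1) to lack of haem and to mitochondrial stress. ATF4 is controlled largely at translation, so RNA counts do not measure its protein or the phosphorylation of eIF2, and the transcripts of its target genes are the readout available here.

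Total counts ranged from 11070923 to 13258036 with DPPA3 mRNA, from 3890134 to 12092771 with reagent alone and from 7258348 to 10130619 in untreated controls. DPPA3 made up 0.953% to 1.93% of counts in the transfected libraries, and the other 6 libraries held 0 to 2 counts of it each. Levels are given in CPM, counts scaled to a common library size after TMM adjustment. The keratin KRT8 measured 3802 to 4995 CPM over the 9 libraries and the adhesion protein CDH1 37.6 to 58.7 CPM, whereas the epithelial marker EPCAM did not exceed 0.782 CPM. Of the other epithelial markers, KRT18 measured 1565 to 2601 CPM and KRT19 2196 to 2872 CPM. CLDN4 and MUC1 reached at most 1.93 and 3.87 CPM. The collagen transcript COL1A1, which marks stromal cells, measured 8085 to 18920 CPM. Other stromal markers ran from COL1A2, at 11060 to 16020 CPM, down to THY1, at no more than 1.29 CPM. The leukocyte marker PTPRC had 0 counts in every library. Markers of both cell types thus ranged from abundant to nearly absent, so the epithelial label was met in part. In such bulk RNA, fewer cells of a type and less RNA per cell cannot be told apart. Untreated control replicate 1 stood apart from the other libraries. It held the highest or the lowest level of 60.1% of all tested genes, against 9.59% to 29.0% for each of the others. Its most abundant gene took 10.98% of its counts, against 3.05% to 4.36% elsewhere. Results against the untreated control are therefore given with and without that library where it matters.

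None of the 10 genes was called in any of the 3 comparisons. By edgeR's quasi-likelihood test, 0 of 10 had an adjusted p under 0.05, 0 had an unadjusted p under 0.05, and DESeq2 also called 0. For DPPA3 mRNA against reagent alone, 0.00672% of all tested genes were called higher and 0% lower, and unadjusted p-values under 0.05 were found for 1.27% in the higher and 0.397% in the lower direction. Against untreated control, 0.0134% were called higher with DPPA3 mRNA and 0% lower, with unadjusted shares of 2.09% and 1.82%. For reagent alone against untreated control 0% were called in either direction, with unadjusted shares of 4.23% and 5.96%. The counts of 0 members called therefore match a background that is itself close to 0.

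The fitted changes were small and fell on both sides of 0. Over the 10 genes the median log2 fold change was -0.007 for DPPA3 mRNA over reagent alone, -0.006 for DPPA3 mRNA over untreated control and 0.018 for reagent alone over untreated control, where the medians over all tested genes were 0.003, 0.002 and -0.010. The means were 0.014, -0.022 and -0.036, so median and mean differed in sign in the first and the third comparison. In each comparison 5 of the 10 had a fitted change above 0 and 5 below, beside 50.4%, 50.2% and 49.2% of all tested genes above 0. The single fitted values lay between -0.20 and 0.25 against reagent alone, between -0.27 and 0.33 against untreated control, and between -0.36 and 0.36 for the reagent. Each of the 30 intervals (95%, per gene, not adjusted for the number of genes) held 0. For DPPA3 mRNA against reagent alone, 9 of the 10 intervals lay within a 2-fold change in either direction, with CHAC1 as the exception. In both comparisons with untreated control 8 of 10 did so, with TRIB3 and CHAC1 as the exceptions. All 3 comparisons share groups with each other, so they are not separate observations.

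**Figure D1:**
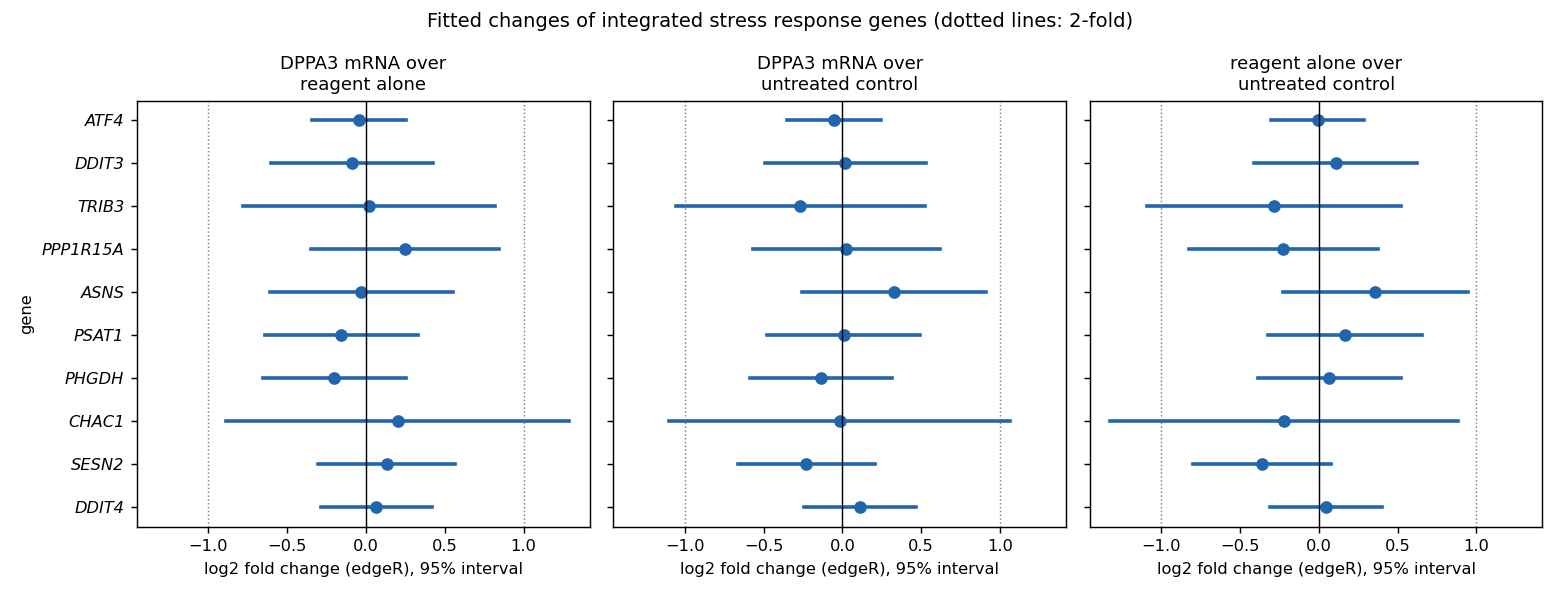
Log2 fold changes (x axis) of the 10 genes (y axis) in the 3 comparisons, from edgeR, with points for the fitted value, bars for the 95% interval and dotted lines at a 2-fold change. Every bar crosses 0, the ATF4 bars are the shortest and the CHAC1 bars the longest.

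ATF4, the transcription factor that drives the program, had nearly the same level in every library. It measured 278, 259.7 and 246 CPM in the 3 libraries given DPPA3 mRNA, 267, 300.4 and 239.8 CPM in the 3 given reagent alone and 266, 281 and 265 CPM in the 3 untreated controls, each series here and below being in the order of replicates 1 to 3. The highest and the lowest library both belonged to the reagent alone group, and all groups overlapped. The change was 0.970-fold over reagent alone (log2 fold change -0.044, SE 0.14, 95% interval 0.790-fold to 1.19-fold; edgeR adjusted p 1). DPPA3 mRNA over untreated control gave 0.964-fold (95% interval 0.785-fold to 1.18-fold) and reagent alone over untreated control 0.994-fold (0.809-fold to 1.22-fold). The highest upper bound of the ATF4 intervals was thus 1.22-fold and the lowest lower bound 0.785-fold. Among the 10 genes ATF4 had the highest counts, at least 1073 in each library, and the smallest spread, with a coefficient of variation of 6.84% over the 9 libraries.

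DDIT3 encodes CHOP, a transcription factor induced downstream of ATF4 that promotes cell death in prolonged stress. It measured 20.4, 15.5 and 15.7 CPM in the 3 libraries given DPPA3 mRNA, 22.2, 14.5 and 18.7 CPM in the 3 given reagent alone and 20.3, 15.8 and 15.0 CPM in the 3 untreated controls. In each group replicate 1 was the highest, and the groups overlapped. The level was 0.940-fold that of reagent alone (log2 fold change -0.089, SE 0.24, 95% interval 0.660-fold to 1.34-fold; edgeR adjusted p 1) and 1.01-fold that of untreated control (0.711-fold to 1.44-fold). Reagent alone was at 1.08-fold the untreated control (0.753-fold to 1.54-fold). In the RefSeq table of assembly ARS-UCD2.0 the DDIT3 locus overlaps MARS1 and the gene LOC132345297, and reads in the shared stretch cannot be told apart without strand. The methionyl-tRNA synthetase transcript, listed as MARS, measured 55.0 to 83.7 CPM.

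TRIB3, a pseudokinase induced by ATF4 and CHOP that damps their activity, spread widely within each group. It measured 15.5, 17.0 and 10.5 CPM in the 3 libraries given DPPA3 mRNA, 21.2, 12.9 and 9.45 CPM in the 3 given reagent alone and 27.7, 11.2 and 13.4 CPM in the 3 untreated controls. The DPPA3 mRNA libraries lay inside the range of the reagent alone libraries and overlapped the untreated controls. Against reagent alone the change was 1.01-fold (log2 fold change 0.017, SE 0.37, 95% interval 0.582-fold to 1.76-fold; edgeR adjusted p 1). Against untreated control it was -0.27 on the log2 scale with DPPA3 mRNA and -0.28 with reagent alone (SE 0.37 for both). Both values turned positive, to 0.23 and 0.21, without untreated control replicate 1.

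PPP1R15A encodes GADD34, the regulatory subunit that brings a phosphatase to eIF2 and ends the response. It measured 42.9, 33.1 and 29.6 CPM in the 3 libraries given DPPA3 mRNA, 33.1, 28.9 and 27.3 CPM in the 3 given reagent alone and 53.0, 28.5 and 23.1 CPM in the 3 untreated controls. Here too replicate 1 was the highest in each group. PPP1R15A had the largest fitted rise of the 10 genes against reagent alone, at 1.19-fold, and it was not called (log2 fold change 0.25, SE 0.28, 95% interval 0.785-fold to 1.80-fold; edgeR adjusted p 1). The PPP1R15A log2 fold change over untreated control was 0.023 (SE 0.28). Without untreated control replicate 1 that value was 0.46, with an unadjusted p of 0.0441 and an edgeR adjusted p of 1.

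**Figure D2:**
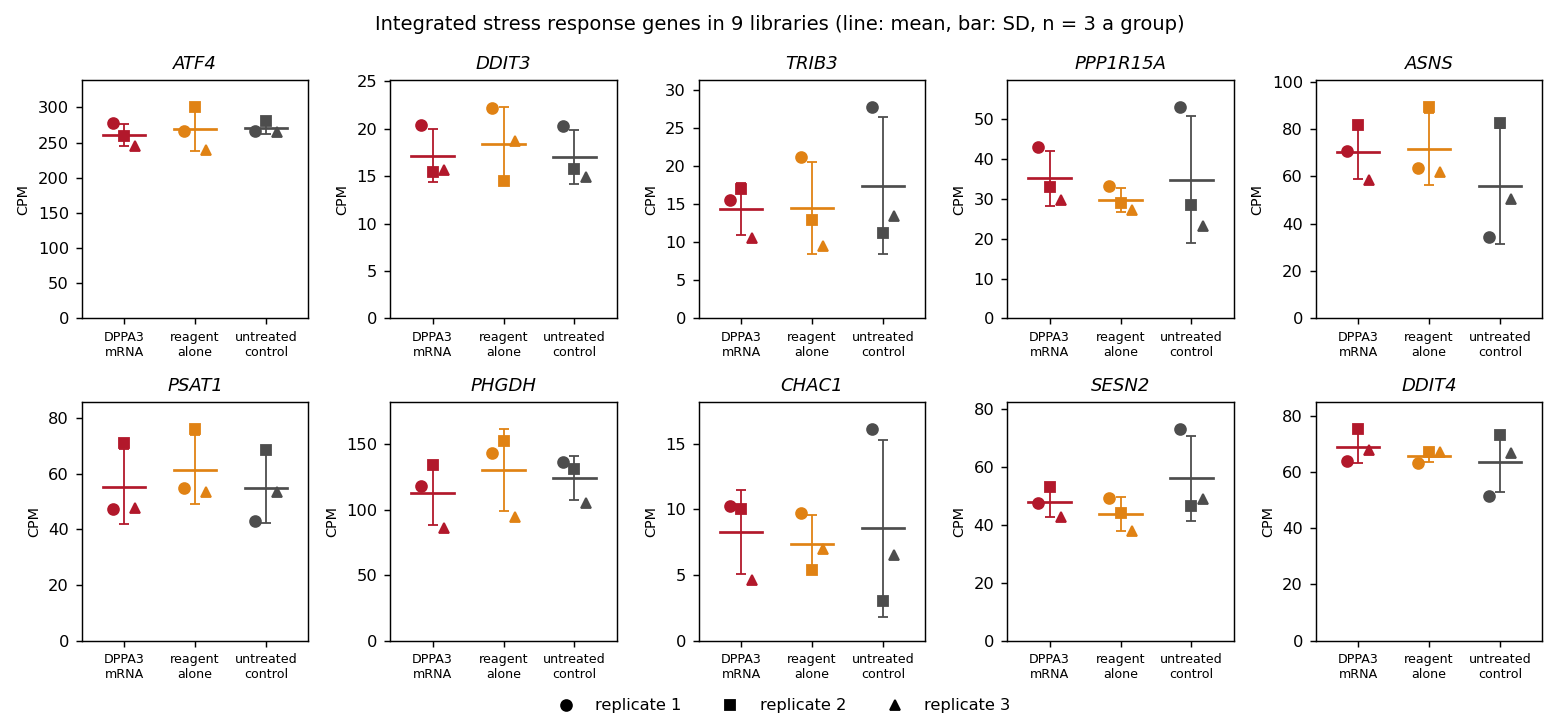
CPM (y axis, from 0) of each of the 10 genes in DPPA3 mRNA, reagent alone and untreated control libraries, with 1 point per library, the mean as a line and the SD as a bar (n = 3 a group). The 3 groups overlap for every gene, and untreated control replicate 1 (grey circle) is the highest point for TRIB3, PPP1R15A, CHAC1 and SESN2.

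The genes for amino acid synthesis followed the same lines. ASNS, asparagine synthetase, is a classical ATF4 target. It measured 70.7, 81.6 and 58.6 CPM in the 3 libraries given DPPA3 mRNA, 63.8, 89.3 and 61.8 CPM in the 3 given reagent alone and 34.3, 82.5 and 50.6 CPM in the 3 untreated controls. Untreated control replicates 1 and 3 were the 2 lowest libraries, while untreated control replicate 2 was the second highest. DPPA3 mRNA over reagent alone was 0.979-fold (log2 fold change -0.031, SE 0.27, 95% interval 0.655-fold to 1.47-fold; edgeR adjusted p 1). Over untreated control the log2 fold change was 0.33 with DPPA3 mRNA (SE 0.27; edgeR adjusted p 0.852) and 0.36 with reagent alone (SE 0.27; edgeR adjusted p 0.552). Leaving out untreated control replicate 1 lowered these to 0.084 and 0.12, and leaving out replicate 2 raised them to 0.72 and 0.75 (edgeR adjusted p 0.194 and 0.0786). The size of the ASNS difference thus depended on single untreated controls, and it passed the threshold in neither case.

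PHGDH and PSAT1 catalyse successive steps of serine synthesis. PHGDH measured 118, 134 and 86.3 CPM in the 3 libraries given DPPA3 mRNA, 143, 153 and 94.5 CPM in the 3 given reagent alone and 137, 131 and 105 CPM in the 3 untreated controls. Replicate 3 was the lowest in each group. PHGDH had the largest fitted decrease of the 10 genes against reagent alone, to 0.869-fold (log2 fold change -0.20, SE 0.21, 95% interval 0.635-fold to 1.19-fold; edgeR adjusted p 1). PSAT1 measured 47.5, 70.9 and 47.5 CPM in the 3 libraries given DPPA3 mRNA, 55.0, 76.0 and 53.6 CPM in the 3 given reagent alone and 43.0, 68.4 and 53.3 CPM in the 3 untreated controls. As for ASNS, replicate 2 was the highest in each group. The PSAT1 change was 0.897-fold over reagent alone (95% interval 0.640-fold to 1.26-fold) and 1.01-fold over untreated control (0.718-fold to 1.41-fold). Reagent alone over untreated control gave 1.12-fold for PSAT1 and 1.05-fold for PHGDH.

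CHAC1, an enzyme that breaks down glutathione and one of the most inducible ATF4 targets, had the fewest counts, 28 to 136 in a library. It measured 10.3, 10.03 and 4.58 CPM in the 3 libraries given DPPA3 mRNA, 9.71, 5.39 and 7.01 CPM in the 3 given reagent alone and 16.1, 3.03 and 6.55 CPM in the 3 untreated controls. The highest and the lowest of the 9 libraries were both untreated controls, and differed 5.32-fold. Against reagent alone the change was 1.15-fold (log2 fold change 0.20, SE 0.50, 95% interval 0.541-fold to 2.44-fold; edgeR adjusted p 1). That interval includes a 2-fold rise, so at this spread such a rise of CHAC1 was not distinguishable from no change. Over untreated control the log2 fold change was -0.019 with DPPA3 mRNA and -0.22 with reagent alone, and it became 0.79 and 0.59 without untreated control replicate 1 (edgeR adjusted p 1 and 0.929).

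SESN2 and DDIT4 encode sestrin 2 and REDD1, stress-induced inhibitors of the growth kinase mTORC1. SESN2 measured 47.3, 52.8 and 42.8 CPM in the 3 libraries given DPPA3 mRNA, 49.3, 44.0 and 37.7 CPM in the 3 given reagent alone and 72.8, 46.3 and 48.7 CPM in the 3 untreated controls. Untreated control replicate 1 was above all other libraries, and the rest lay between 37.7 and 52.8 CPM. SESN2 had the smallest p of the 10 genes in any comparison, for reagent alone against untreated control (log2 fold change -0.36, SE 0.20, 95% interval 0.575-fold to 1.06-fold; unadjusted p 0.0994, edgeR adjusted p 0.471). Without untreated control replicate 1 that log2 fold change was -0.12. Against reagent alone DPPA3 mRNA gave 1.10-fold (95% interval 0.809-fold to 1.48-fold).

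DDIT4 measured 63.9, 75.2 and 67.7 CPM in the 3 libraries given DPPA3 mRNA, 63.3, 67.0 and 67.2 CPM in the 3 given reagent alone and 51.6, 73.0 and 66.6 CPM in the 3 untreated controls. Apart from untreated control replicate 1, which was the lowest, the libraries lay close together. The level with DPPA3 mRNA was 1.05-fold that of reagent alone (log2 fold change 0.065, SE 0.16, 95% interval 0.819-fold to 1.34-fold; edgeR adjusted p 1) and 1.08-fold that of untreated control (0.846-fold to 1.38-fold).

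In none of the 30 combinations of gene and comparison were all libraries of one group above or below all libraries of the other. Over all tested genes such separation was found for 4.91% in the higher and 3.99% in the lower direction with DPPA3 mRNA against reagent alone. The shares were 4.24% and 3.86% for DPPA3 mRNA against untreated control and 6.92% and 7.21% for reagent alone against untreated control. By group mean, the DPPA3 mRNA group was the highest for 2 genes, DDIT4 and PPP1R15A. Reagent alone was the highest for 4 (DDIT3, ASNS, PSAT1 and PHGDH) and untreated control for 4 (ATF4, TRIB3, CHAC1 and SESN2). The libraries of neighbouring groups in these orders overlapped for every gene.

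The highest and lowest levels of the 10 genes were spread unevenly over the libraries, as were those of all tested genes. In untreated control replicate 1 the 10 genes did not move together. Untreated control replicate 1 held the highest level of 4 genes (TRIB3, CHAC1, SESN2 and PPP1R15A) and the lowest of 3 (ASNS, PSAT1 and DDIT4). It thus held an extreme for 7 of the 10 genes, beside 60.1% of all tested genes. Set against the mean of the other 2 untreated controls, it was at 3.36-fold for CHAC1, 2.26-fold for TRIB3, 2.06-fold for PPP1R15A and 1.53-fold for SESN2. In the same library ASNS was at 0.516-fold, PSAT1 at 0.707-fold and DDIT4 at 0.739-fold, while ATF4 was at 0.975-fold. ATF4 targets thus lay on both sides in that library. Reagent alone replicate 2 held the highest level of another 4 genes, ATF4, ASNS, PSAT1 and PHGDH, beside 11.6% of all tested genes.

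**Figure D3:**
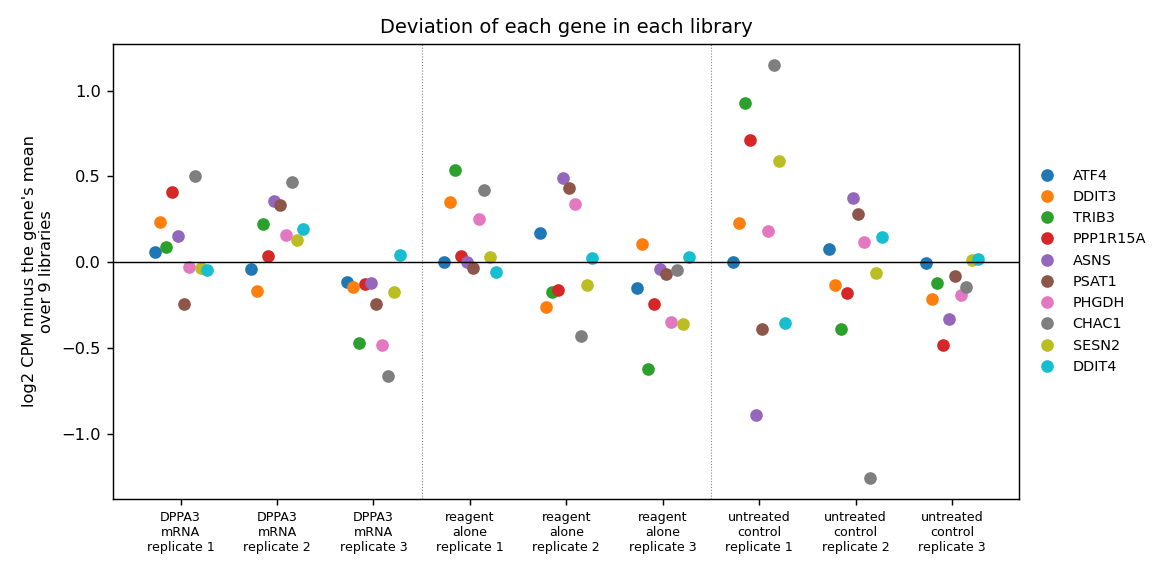
Log2 CPM of each gene minus its own mean over the 9 libraries (y axis), by library (x axis), with 1 colour per gene. Untreated control replicate 1 has the widest scatter on both sides of 0, apart from the low CHAC1 point in untreated control replicate 2, and ATF4 stays near 0 throughout.

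Levels followed the replicate number for part of the list. The same number was the highest in all 3 groups for 5 of the 10 genes, number 1 for DDIT3, CHAC1 and PPP1R15A and number 2 for ASNS and PSAT1. Over all tested genes this held for 26.0%. The same number was the lowest in all groups for 4 genes, number 3 for ATF4, PHGDH and PPP1R15A and number 1 for DDIT4, against 23.6% of all genes. Between DPPA3 mRNA and untreated control, whose numbers were taken as pairs, DDIT4 was higher in 3 of 3 pairs and no gene was lower in all 3, against 19.3% and 17.5% of all tested genes. When replicate number was added as a block, 7 genes were called over the whole table in that comparison, against 2 without it, and 0 of the 10 were among them. The blocked log2 fold change of ASNS was 0.39 (edgeR adjusted p 0.524), the smallest p among the 10 under the block in that comparison.

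The kinases upstream of eIF2 were also measured. EIF2AK2, which encodes PKR and is also on the list of interferon-stimulated genes below, was at 106, 536 and 200.2 CPM in the 3 libraries given DPPA3 mRNA, 119, 146 and 147 CPM in the 3 given reagent alone and 45.3, 129 and 112 CPM in the 3 untreated controls. DPPA3 mRNA replicates 2 and 3 were above all other libraries, and DPPA3 mRNA replicate 1 was below all reagent alone libraries. The log2 fold change was 1.03 over reagent alone (SE 0.47; unadjusted p 0.046, edgeR adjusted p 1). Over untreated control it was 1.55 (SE 0.48; unadjusted p 0.00592, edgeR adjusted p 0.852). Leaving out single libraries moved the second value between 0.68, without DPPA3 mRNA replicate 2, and 1.95, without DPPA3 mRNA replicate 1 (edgeR adjusted p 0.998 and 0.124). It passed the threshold in 1 alternative, edgeR with no filter on low counts (adjusted p 1.7e-07). In the library with 536 CPM of EIF2AK2, ATF4 was at 259.7 CPM and DDIT3 at 15.5 CPM, both inside the range of the libraries without mRNA. DDIT4, at 75.2 CPM there, was above all libraries without mRNA. CHAC1 and SESN2, at 10.03 and 52.8 CPM, were above all of those except untreated control replicate 1. A link between EIF2AK2 and the 10 genes was not tested.

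**Figure D4:**
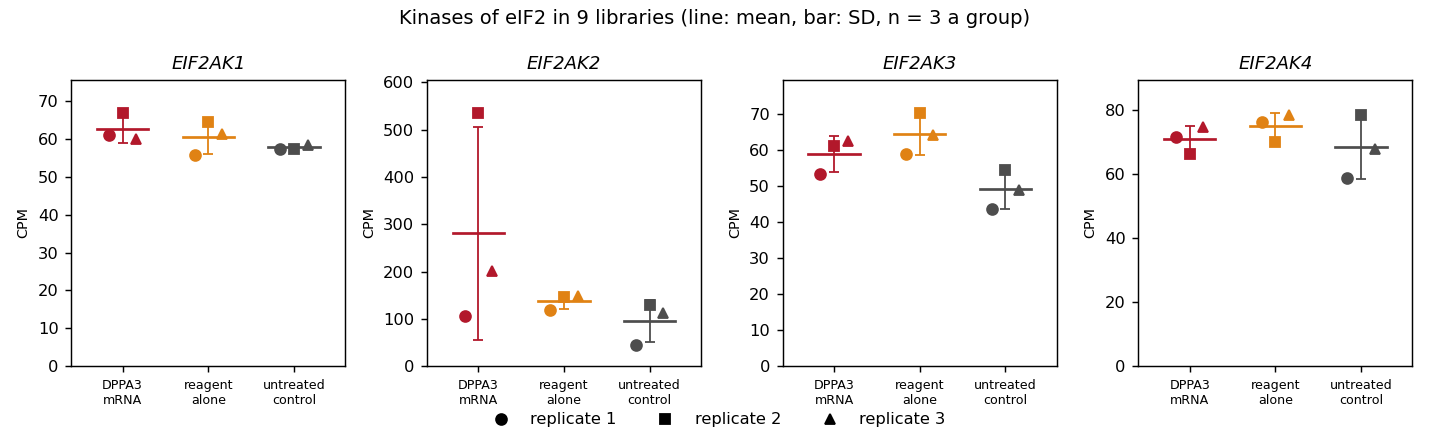
CPM (y axis, from 0) of the 4 eIF2 kinase genes in DPPA3 mRNA, reagent alone and untreated control libraries, with 1 point per library, the mean as a line and the SD as a bar (n = 3 a group). DPPA3 mRNA replicate 2 stands out for EIF2AK2 at 536 CPM, and no such point is seen for EIF2AK1, EIF2AK3 or EIF2AK4.

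The other kinases were called in no comparison. EIF2AK3 (PERK) averaged 59.0 ± 4.95 CPM after DPPA3 mRNA, 64.4 ± 5.78 CPM after reagent alone and 49.0 ± 5.39 CPM among untreated controls (SD, n = 3). All reagent alone libraries were above all untreated controls, as for 6.92% of all tested genes (log2 fold change 0.40, SE 0.16; unadjusted p 0.0284, edgeR adjusted p 0.466). EIF2AK4 (GCN2) averaged 70.8 ± 4.27, 74.9 ± 4.28 and 68.3 ± 9.93 CPM in the DPPA3 mRNA, reagent alone and untreated control groups (SD, n = 3). EIF2AK1 (HRI) averaged 62.7 ± 3.74, 60.6 ± 4.45 and 57.9 ± 0.619 CPM in the same groups (SD, n = 3). Of the 23 tested genes for eIF2 kinases, eIF2, eIF2B and the phosphatase, 0 were called by edgeR or DESeq2 in any comparison. Their median log2 fold change was -0.081 for DPPA3 mRNA over reagent alone, 0.17 for DPPA3 mRNA over untreated control and 0.27 for reagent alone over untreated control. Without untreated control replicate 1 the last 2 values were 0.099 and 0.17. Fitted changes above 0 numbered 9, 19 and 18 of the 23 in the same order, beside 50.4%, 50.2% and 49.2% of all tested genes. With the reagent, 4 of the 23 were fully separated from untreated control in the higher and 1 in the lower direction. This stood beside 6.92% and 7.21% of all tested genes. These counts include untreated control replicate 1.

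In that list of 23, 4 genes had an unadjusted p under 0.05 for the reagent, 3 higher and 1 lower. Over all tested genes the shares were 4.23% higher and 5.96% lower, and 0 of the 4 were called. Besides EIF2AK3 the 4 genes included IMPACT, an inhibitor of GCN2 activation, at 27.6 ± 6.86 CPM after reagent alone and 14.6 ± 6.46 CPM among untreated controls (SD, n = 3; log2 fold change 0.90, edgeR adjusted p 0.466). OMA1, the mitochondrial protease that relays stress to HRI, measured 7.54 ± 0.390 CPM after reagent alone and 3.72 ± 2.02 CPM among untreated controls (SD, n = 3; log2 fold change 0.99, edgeR adjusted p 0.466). Leaving out untreated control replicate 1 gave 0.61 for IMPACT and 0.67 for OMA1. GCN1, the partner that activates GCN2, was the lower one; it was named after its values were seen (log2 fold change -0.38, edgeR adjusted p 0.466).

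Further ATF4-linked genes were read from lists that do not overlap with the 10. Among 20 such genes, including ATF3, ATF5, CEBPB, CEBPG, NUPR1, VLDLR, STC2 and GDF15, 0 were called by edgeR or DESeq2 in any comparison, and 0 had an unadjusted p under 0.05 for DPPA3 mRNA against either group. Their median log2 fold change was -0.059 for DPPA3 mRNA over reagent alone, 0.084 over untreated control (mean -0.015) and 0.15 for the reagent over untreated control. For reagent alone against untreated control, 2 of the 20 had an unadjusted p under 0.05 in each direction. Over all tested genes the shares were 4.23% higher and 5.96% lower. CEBPB, a transcription factor that pairs with ATF4, averaged 142 ± 1.59 CPM after reagent alone and 232 ± 105 CPM among untreated controls (SD, n = 3; log2 fold change -0.70, edgeR adjusted p 0.466). EIF4EBP1, a repressor of cap-dependent translation, averaged 10.9 ± 1.73 and 19.6 ± 8.82 CPM in the same order (SD, n = 3; log2 fold change -0.83, edgeR adjusted p 0.466). Without untreated control replicate 1 these were -0.26 and -0.39, so most of each difference came with that library. KLHL24 and XPOT, which carries tRNA out of the nucleus, were the higher ones (log2 fold change 0.66 and 0.43, edgeR adjusted p 0.466 for both), and KLHL24 gave 0.41 without that library.

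Amino acid transport and tRNA charging gave a like picture. Of 10 tested transporters and 20 tested aminoacyl-tRNA synthetases 0 were called by edgeR or DESeq2, and 0 had an unadjusted p under 0.05 with DPPA3 mRNA in either comparison. The transporters' medians were -0.086, -0.099 and -0.14 in the 3 comparisons, and in the last their mean was 0.10. Without untreated control replicate 1 the last 2 medians were 0.044 and 0.066. SLC38A2, a transporter of neutral amino acids, averaged 112 ± 37.3 CPM after DPPA3 mRNA, 146 ± 17.5 CPM after reagent alone and 82.4 ± 48.9 CPM among untreated controls (SD, n = 3). Its log2 fold change for the reagent was 0.82, and 0.49 without untreated control replicate 1. Its relative SLC38A1 averaged 94.1 ± 15.2, 106 ± 14.0 and 76.1 ± 11.6 CPM in the same groups (SD, n = 3), and was higher in every reagent alone library than in every untreated control (log2 fold change 0.48, edgeR adjusted p 0.466). Such separation in the higher direction was found for 6.92% of all tested genes. SLC7A11, the cystine transporter, averaged 14.4 ± 6.09 CPM after DPPA3 mRNA, 22.1 ± 6.70 CPM after reagent alone and 12.9 ± 5.89 CPM among untreated controls (SD, n = 3). The synthetases' medians were -0.029, 0.14 and 0.16 in the 3 comparisons, and the last 2 were -0.002 and 0.022 without untreated control replicate 1. Of their members with the smallest p, DARS gave 0.63 and VARS -0.38 for the reagent (edgeR adjusted p 0.466 for both), and LARS and GARS 0.54 and 0.39 (edgeR adjusted p 0.466 for both). Without untreated control replicate 1 DARS gave 0.35, LARS 0.28 and VARS -0.23.

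Enzymes of serine, proline and one-carbon metabolism, which lie downstream of PHGDH and PSAT1 or beside them, numbered 14 tested genes, and 0 were called by edgeR or DESeq2 or had an unadjusted p under 0.05 in any comparison. Their medians were -0.088, -0.006 and 0.039. Apart from SLC7A11, which is also on this list and on that of the ATF4-linked genes, GPT2 (log2 fold change 0.40 for DPPA3 mRNA against reagent alone, edgeR adjusted p 1) and TYMS (-0.33 for the reagent, edgeR adjusted p 0.553) were among those with the smallest p.

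The branches of the unfolded protein response that run through ATF6 and through XBP1 share endoplasmic reticulum stress as a trigger with PERK. Of the 20 tested genes of these branches 0 were called by edgeR or DESeq2. Medians were -0.030, 0.051 and 0.095 in the 3 comparisons. DNAJB9, a chaperone induced by XBP1, measured 9.65, 11.8 and 7.81 CPM in the 3 libraries given DPPA3 mRNA, 8.47, 10.9 and 8.35 CPM in the 3 given reagent alone and 2.42, 6.82 and 3.03 CPM in the 3 untreated controls. Every library that had received reagent was above every untreated control, with mRNA or without it. The log2 fold change over untreated control was 1.24 with DPPA3 mRNA (SE 0.37; unadjusted p 0.00525, edgeR adjusted p 0.852) and 1.16 with reagent alone (SE 0.38; unadjusted p 0.00834, edgeR adjusted p 0.466). The value with DPPA3 mRNA was 0.996 without untreated control replicate 1. DNAJB11, its relative in the endoplasmic reticulum, showed the same separation, at 44.0 ± 3.22 CPM after DPPA3 mRNA, 48.4 ± 3.54 CPM after reagent alone and 31.4 ± 4.17 CPM among untreated controls (SD, n = 3). SDF2L1 was lower in every reagent alone library than in every untreated control (log2 fold change -0.51, edgeR adjusted p 0.466), and HSP90B1 gave 0.42 (edgeR adjusted p 0.469). Both were smaller without untreated control replicate 1, at -0.23 for SDF2L1 and 0.20 for HSP90B1. These genes share the 3 untreated controls, and 2.09% and 4.23% of all tested genes had an unadjusted p under 0.05 in the higher direction in the 2 comparisons. Full separation from the untreated controls was found for 4.24% of all tested genes in the higher direction with DPPA3 mRNA. With reagent alone it was found for 6.92% in the higher and 7.21% in the lower direction.

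The interferon-stimulated genes were read in the same libraries for comparison. RNA sensing itself was not measured, and the cause of their levels was not tested. The summed level of the 28 listed genes found in the table was 656 to 4808 CPM with DPPA3 mRNA, 574 to 748 CPM with reagent alone and 368 to 602 CPM in untreated controls. The 10 stress genes summed to 609 to 750 CPM, 617 to 791 CPM and 648 to 740 CPM in the same groups. MX1, an antiviral GTPase, was at 27.9, 669 and 116 CPM in the transfected libraries, against 5.80 to 27.1 CPM in the 6 libraries without mRNA. Of 26 tested interferon-stimulated genes 24 had an unadjusted p under 0.05 in the higher direction against reagent alone, beside 1.27% of all tested genes. Of these 26 genes 0 were called by edgeR, while DESeq2 called 4. Their median log2 fold change was 2.26, beside -0.007 for the stress genes and 0.003 for all tested genes, and it was 0.995 without DPPA3 mRNA replicate 2. This list was chosen with that result known. IFITM1, a membrane protein that restricts virus entry, was its 1 member called against untreated control (log2 fold change 2.77, edgeR adjusted p 0.0372), and that call did not hold without any single one of 5 of the 6 libraries (edgeR adjusted p 0.0761 to 0.264). In DPPA3 mRNA replicate 2, where interferon-stimulated genes were highest, TRIB3 was at 17.0 CPM, ASNS at 81.6 CPM and CHAC1 at 10.03 CPM, each within the range of the libraries without mRNA. The same held in that library for 9 of the 10 stress genes, and the exception was DDIT4, whose 75.2 CPM lay above the 51.6 to 73.0 CPM of those libraries. That range includes untreated control replicate 1. With that control left out, CHAC1 and SESN2 also lay above the range, at 10.03 and 52.8 CPM against at most 9.71 and 49.3 CPM. In DPPA3 mRNA replicate 2, as in reagent alone replicate 1, 8 of the 10 genes were above their own mean over the 9 libraries. The shares of all tested genes within the range of the libraries without mRNA, or above their own mean, were not computed. These counts therefore cannot be called particular to the stress genes. DPPA3 mRNA replicate 2 held the highest or lowest level of 1 of the 10 genes, beside 20.5% of all tested genes.

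**Figure D5:**
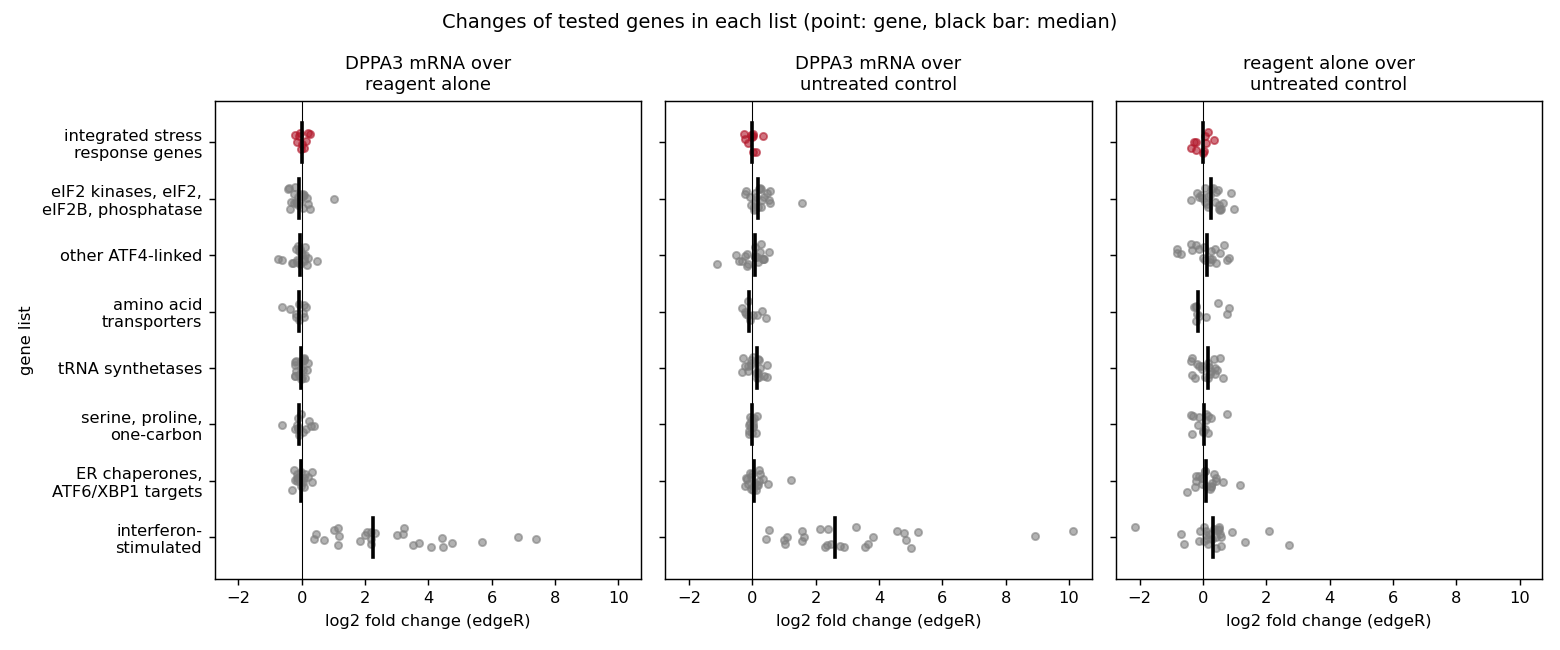
Log2 fold changes (x axis) of the tested genes of each list (y axis) in the 3 comparisons, with 1 point per gene and the list's median as a black bar. The stress genes (red) gather at 0 in all panels with medians of -0.007, -0.006 and 0.018, while the interferon-stimulated genes have medians of 2.26 and 2.63 with DPPA3 mRNA (0.995 and 1.20 without its replicate 2) and 0.31 with reagent alone.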

How the data were processed

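Raw whole-number counts per gene symbol, as deposited by the authors, were the input, with 1 column per library. Trimmomatic, HISAT2, HTSeq and edgeR are named, without roles, in the submitters' processing notes. The genome build, the annotation and the use of strand were not stated. No coordinates or sequences are printed. Counts were filtered with filterByExpr, scaled with TMM factors and fitted with edgeR 4.0.16 (glmQLFit, glmQLFTest) in R 4.3.3, with the 3 groups in 1 model that had no other term. Calls needed an adjusted p (Benjamini-Hochberg over the 14874 genes tested) under 0.05. The common dispersion corresponded to a biological coefficient of variation of 0.26. Standard errors were obtained as log2 fold change over the square root of F, and 95% intervals use the t distribution. Scripts were tested on simulated data. A count of 0 allows up to 3 counts, 0.226 to 0.747 CPM per library, and floors and depths cover counting error only. Replicate pairs differed beyond sampling noise (chi-square per degree of freedom at least 14.4).

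The members and lists were chosen with earlier results of these data known. Named genes are the 10 members, the 4 eIF2 kinases, DPPA3, and up to 4 genes of each list with the smallest p, not all of which are reported here. EPCAM, KRT8, KRT18, KRT19, CDH1, CLDN4, MUC1, COL1A1, COL1A2, THY1 and PTPRC are given as markers and MARS for its overlap. Older symbols (VARS for VARS1) are as in the table. Replicate numbers recur in each group. Deviations of equal numbers correlated at 0.34, 0.32 and 0.12 between DPPA3 mRNA and untreated control, all over the limit of 0.1, so those numbers were taken to pair the libraries, from the data and not from the labels. Fitted values for that comparison leave this pairing out unless the block is named. Alternatives were DESeq2 1.42.0 size factors or Wald test, no filter, fits of the 6 libraries at issue alone, replicate number as a block, library sizes without DPPA3, and each library left out in turn.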

Additional observations from a re-analysis of the deposited data

How the results depend on the processing

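No alternative called any of the 10 genes: 0 were called under each of the 12 settings of every comparison, and the smallest adjusted p was 0.0786, for ASNS with reagent alone against untreated control without untreated control replicate 2. The medians of the 10 genes moved by less than the spread between replicates (0.197 on the log2 scale) under every setting, and ranged from -0.097 to 0.081 against reagent alone, -0.135 to 0.093 against untreated control and -0.049 to 0.133 for the reagent when single libraries were left out. Of 360 values of single members 323 kept their direction and 37 reversed. The cause was not tested. With the replicate block CHAC1 against untreated control became 0.13 (adjusted p 0.913), and the block changed no other direction among the 10. All other reversals came from leaving out 1 library. Against reagent alone the log2 fold changes then ranged from -0.15 to 0.16 for ASNS, -0.12 to 0.043 for ATF4, -0.24 to 0.051 for DDIT3, -0.001 to 0.11 for DDIT4, -0.38 to 0.027 for PSAT1 and -0.23 to 0.36 for TRIB3. For DPPA3 mRNA against untreated control they ranged from -0.43 to 0.79 for CHAC1, -0.12 to 0.17 for DDIT3, -0.012 to 0.22 for DDIT4, -0.28 to 0.025 for PHGDH, -0.20 to 0.46 for PPP1R15A, -0.21 to 0.20 for PSAT1, -0.35 to 0.009 for SESN2 and -0.50 to 0.23 for TRIB3. For the reagent they ranged from -0.095 to 0.068 for ATF4, -0.63 to 0.59 for CHAC1, -0.031 to 0.26 for DDIT3, -0.072 to 0.16 for DDIT4, -0.068 to 0.25 for PHGDH, -0.45 to 0.21 for PPP1R15A, -0.018 to 0.36 for PSAT1 and -0.62 to 0.21 for TRIB3. Over the whole table, genes called in the 3 comparisons numbered 66, 69 and 18 with no filter and 9, 10 and 2 with DESeq2. With the replicate block 2 and 7 were called in the first 2 comparisons. With DPPA3 left out of library sizes, which also takes it out of the test, 0 and 0 were called. With 1 library left out at a time, the counts lay at 1 to 20, 1 to 26 and 0 to 1. In the other comparisons equal numbers correlated at 0.14, 0.12 and 0.086 (DPPA3 mRNA with reagent alone) and at 0.15, 0.14 and 0.093 (reagent alone with untreated control). Not all of these passed the limit of 0.1, so the numbers were not taken as pairs there. That limit does not show that the reagent alone libraries are unpaired. A block there called 2 and 0 genes. Of 348 values of the 29 other named genes 0 reversed, 7 of IFITM1 no longer passed the threshold, and 11 of EIF2AK2, IFI6, MX1 and RSAD2 newly passed it. The medians of the other lists with single libraries left out were added after seeing the data. CHAC1 had 28 to 136 counts per library.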
